A study of Sus scrofa with 23 samples.

Results

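The comparison described here set severe against moderate coronary lesions of swine without diabetes. It rests on 9 of the 23 RNA libraries of the study, 5 from severe and 4 from moderate non-diabetic segments, taken by the group named in each title. Every segment was 3 mm of coronary artery from Yorkshire swine, a farm breed, made hypercholesterolemic, and its grade came from histopathology. The study also holds 4 mild segments without diabetes, and 4 severe and 6 moderate segments from diabetic hypercholesterolemic animals, which appear here only beside the main pair. All 5 groups were therefore hypercholesterolemic, and none was a healthy artery. The age and sex of the animals, the cause of the diabetes and the number of animals behind each group are not given in the labels used here. Among the 5 severe libraries, replicate 5 has conflicting labels. It is severe and non-diabetic by title and source name, but moderate and diabetic by its characteristics. The title was followed, and since the deposited tables hold group means and no value of a single library, no result can be given without it.

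An atherosclerotic lesion grows as the artery wall takes up cholesterol-rich lipoproteins, which macrophages engulf until they become lipid-laden foam cells. These cells digest lipid and matrix in lysosomes, export cholesterol through membrane pumps and secrete proteases. Contractile smooth muscle cells meanwhile lose muscle proteins and make matrix. In pigs on a high-cholesterol diet the coronary arteries form lesions of this kind, and grading by histopathology ranks segments by plaque structure.

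Severe and moderate segments differed in few transcripts. Of 19716 genes with an adjusted p-value in the authors' deposited table, 4 passed an adjusted p of 0.05, which is 0.0203% of those tested. A single gene was higher in severe segments (0.00507%), the actin-nucleating formin FMN1, and 3 were lower (0.0152%), all known by locus numbers. In the same deposited analysis, severe against mild segments gave 2435 such genes of 20294 (12%), and moderate against mild gave 860 of 18561 (4.63%). Severe against moderate segments with diabetes gave 1 of 30151 (0.00332%), LOC102168151. That set is as large as the set of all genes with a p, while the other sets were reduced by a filter on low means. Its share and adjustment are therefore not like theirs.

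The values printed below are group means of normalized counts, that is, read counts divided by a scaling factor for each library's depth. Log2 fold changes are severe over moderate, so a value of 1 means a doubling, and the number after ± is the standard error that DESeq2 estimated. All come from the authors' deposited tables unless said to be computed here. DESeq2 fits a count model gene by gene and adjusts p over all genes tested, and its standard errors here come from a joint fit of all 5 groups. The spread of single segments around a mean is therefore not shown, and no statement can be made on whether the segments of both groups overlap. No label links a segment to its animal. The p-values therefore reflect how much segments varied, and are too small if 1 animal gave several segments to a group.

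Steps of single reads in the low group means placed the libraries at about 8.11 M to 12.6 M reads in severe and 6.72 M to 14.3 M in moderate segments. The artery's own markers were present in both. Those not found by name (LMOD1, CDH5, CD68, MYL2 and HBA1) are left out of the sums that follow. Summed smooth muscle markers (ACTA2, MYH11 and CNN1) were 47414 in severe and 55147 in moderate segments. Endothelial markers summed to 3316 in severe and 3114 in moderate segments, adventitial fibroblast markers to 17800 and 19448, and macrophage markers to 4983 and 3813. The samples also held neighbouring tissue. Heart muscle markers summed to 18855 in severe and 18250 in moderate segments, nerve markers to 1170 and 1808, and adipocyte markers to 2509 and 2405. Lymphocyte markers summed to 45.7 in severe and 41.3 in moderate segments, with 1 of the 3 matched at 0 in each. The remaining lymphocyte marker, JCHAIN, is listed under its older symbol IGJ, has no p and is not in that sum; it averaged 41.8 in severe and 41.7 in moderate segments. In bulk tissue such as this, fewer cells of a type and less RNA per cell cannot be told apart.

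**Figure D1:**
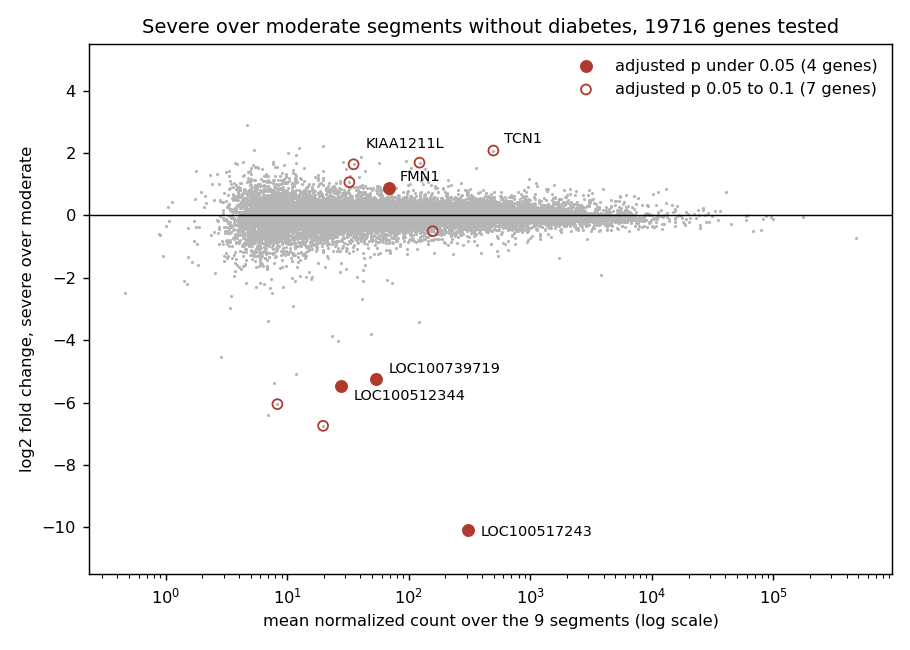
Each point is a gene, with its mean normalized count over the 9 segments (horizontal log axis) and its log2 fold change, severe over moderate (vertical axis). Filled circles mark the 4 genes past an adjusted p of 0.05 and open circles the 7 between 0.05 and 0.1; most other genes lie within 1 of 0.

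The width of the fold changes shows how close both grades were. Among the genes tested, the median log2 fold change was -0.02, with quartiles of -0.15 and 0.13. At a mean of 50 or more, the table held 13302 genes, of which 18 were higher and 25 lower by 1 or more on the log2 scale. For 12015 of them (90.3%), the 95% interval computed from the deposited standard error lay wholly between -1 and 1. At the median standard error of these genes, 0.21, a change had to reach 0.94 on the log2 scale, or 1.92-fold, to match the weakest of the 4 calls. Genes with a smaller standard error could pass at a smaller change, as FMN1 did at 0.87 with an error of 0.19. At the median error, changes of the size of most list medians below were not detectable gene by gene. Unadjusted p-values under 0.05 were found for 437 genes higher in severe segments (2.22%) and 308 lower (1.56%), 745 in all, where 985.8 would be 5% of those tested.

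FMN1, on chromosome 1 at positions 136696353 to 137163532 in Sscrofa11.1, encodes a formin, a protein that starts and lengthens actin filaments. It averaged 85.5 normalized counts in severe and 47.2 in moderate segments. The gene rose by 0.87 ± 0.19 on the log2 scale, 1.83-fold, with a 95% interval of 0.49 to 1.25 and a DESeq2 adjusted p of 0.0337 in the authors' deposited table. In mild segments its mean was 9.85, and with diabetes it was 98.6 in severe and 122 in moderate segments. Without diabetes the means thus stood in the order of grade, mild below moderate below severe, and both diabetic groups lay above them. This is the weakest of the 4 calls: with all 30151 genes that have a p adjusted together, its adjusted p was 0.0515.

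The 3 genes that fell were close to absent in severe segments. LOC100517243 averaged 0.66 normalized counts in severe and 692 in moderate segments. Its severe mean corresponds to 3 reads over the 5 libraries together, near the limit of detection, and the ratio of the moderate to the severe mean was 1045, with a counting interval of 358 to 5066 that covers reads alone. In the authors' deposited table the gene fell by 10.09 ± 1.78 on the log2 scale (DESeq2 adjusted p = 0.000267). It averaged 1442 in mild segments, and with diabetes 668 in severe and 721 in moderate segments, so the non-diabetic severe group was the only group near 0.

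LOC100512344 showed the same layout at a lower level. It averaged 1.38 normalized counts in severe segments, which corresponds to 6 or 7 reads in all, and 60.8 in moderate segments. The gene fell by 5.46 ± 0.98 on the log2 scale in the authors' deposited table (DESeq2 adjusted p = 0.000267). In mild segments its mean was 70.3, and with diabetes it was 150 in severe and 98.4 in moderate segments.

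LOC100739719 is listed as protein-coding on chromosome 13 at positions 82375028 to 82376050 in Sscrofa11.1, with no gene name. It averaged 3.06 normalized counts in severe segments, 12 to 17 reads in all, and 117 in moderate segments. It fell by 5.23 ± 1.02 on the log2 scale in the authors' deposited table (DESeq2 adjusted p = 0.00203). Mild segments averaged 231. Here the diabetic groups were also low, at 6.64 in severe and 4.37 in moderate segments. The other 2 locus numbers have no entry in the reference gene table used, so their products and positions are not stated here. For LOC100517243 and LOC100512344, the few reads of the whole severe group mean that every severe segment was low. With no value per library, how many moderate segments carried the higher means of these 3 genes cannot be given.

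**Figure D2:**
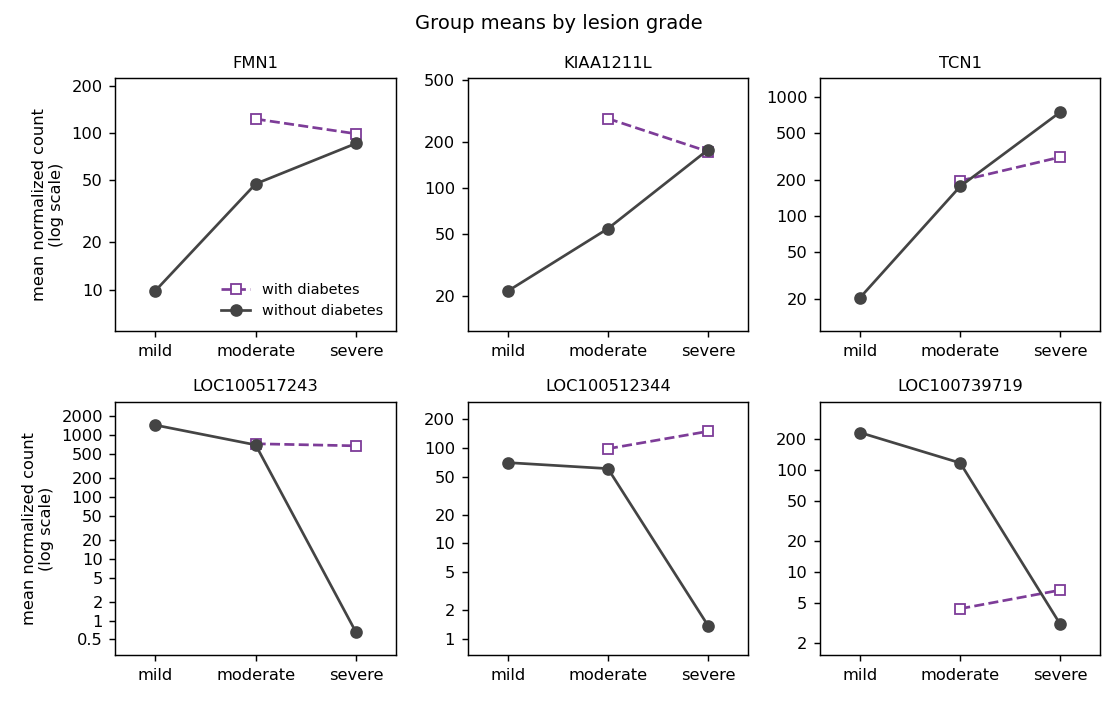
Mean normalized count (vertical log axis) by lesion grade for 3 genes higher and 3 lower in severe than in moderate segments without diabetes; open squares are groups with diabetes and filled circles groups without. FMN1, KIAA1211L and TCN1 stand in the order of grade without diabetes, while LOC100517243 and LOC100512344 are near 0 in the severe non-diabetic group alone; KIAA1211L and TCN1 did not pass the threshold.

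Just short of the threshold, 7 genes had an adjusted p between 0.05 and 0.1 in the authors' deposited table; all but KIAA1211L were named after their values were seen. KIAA1211L averaged 177 normalized counts in severe and 54.6 in moderate segments (log2 1.69 ± 0.40, DESeq2 adjusted p = 0.0552). Its mean was 21.5 in mild segments. TCN1, which encodes a vitamin B12 carrier, averaged 752 in severe and 178 in moderate segments (log2 2.08 ± 0.50, DESeq2 adjusted p = 0.0786). Its mean was 20.6 in mild segments, and 314 in severe and 198 in moderate segments with diabetes. LOC102166402, matched by its identifier to the symbol XG, averaged 42.42 in severe and 20.02 in moderate segments (log2 1.07 ± 0.25, DESeq2 adjusted p = 0.0523). LOC102158306 averaged 50.5 in severe and 16.0 in moderate segments (log2 1.64 ± 0.40). The other 3 had lower means in severe segments: LOC100525180 at 0.21 against 18.4 (1 read in the severe group, ratio of moderate to severe means 87.8, counting interval 15.8 to 3468), LOC102167592 at 0.36 against 44.0 (2 reads, ratio 123, interval 34.1 to 1017) and LOC100155915 at 133 against 187 (log2 -0.50 ± 0.12).

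At an adjusted p under 0.2 the table holds 23 genes, 10 higher and 13 lower. Those with symbols included TSPAN4, a tetraspanin membrane protein, at 552 in severe and 389 in moderate segments (log2 0.51 ± 0.13, DESeq2 adjusted p = 0.125). COASY, which makes coenzyme A, stood at 110 in severe and 72.5 in moderate segments (log2 0.58 ± 0.15, DESeq2 adjusted p = 0.155). RAB27B, a small GTPase of vesicle secretion, stood at 284 in severe and 440 in moderate segments (log2 -0.63 ± 0.17, DESeq2 adjusted p = 0.194).

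The near-absence seen in LOC100517243 and LOC100512344 was looked for in every group. Where each other group had a mean of 10 or more, 6 genes had a severe non-diabetic mean more than 10 times lower than every other group's mean; of these, 2 are among the 4 calls. The same count was 20 for mild and 0 for moderate segments without diabetes, and 3 for moderate and 0 for severe segments with diabetes. Another of the 6 was MMRN2_2, a numbered copy of MMRN2, an endothelial matrix protein, at 23.1 in severe and 246 in moderate segments (log2 -3.41 ± 0.92, DESeq2 adjusted p = 0.194). Its partner MMRN2_1 stood the other way, at 672 in severe and 433 in moderate segments. Reads may be split between both copies, and their sum was 695 in severe and 679 in moderate segments. Numbered copies and unnamed loci are therefore reported as uncertain.

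Gene lists gave no call in either direction. The 52 lists held 1156 different genes, of which 1041 were matched and 976 had an adjusted p; 0 were higher and 0 lower at an adjusted p under 0.05. The counts below are therefore of signs, set beside the 46.5% of all tested genes whose fold change was above 0 and their median of -0.02. A list's median is a description, since its members vary together and no list was tested. Lists overlap: PLTP and APOE are both foam cell and export genes, LIPA is also lysosomal, and C1QB is both a macrophage and a complement gene.

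**Figure D3:**
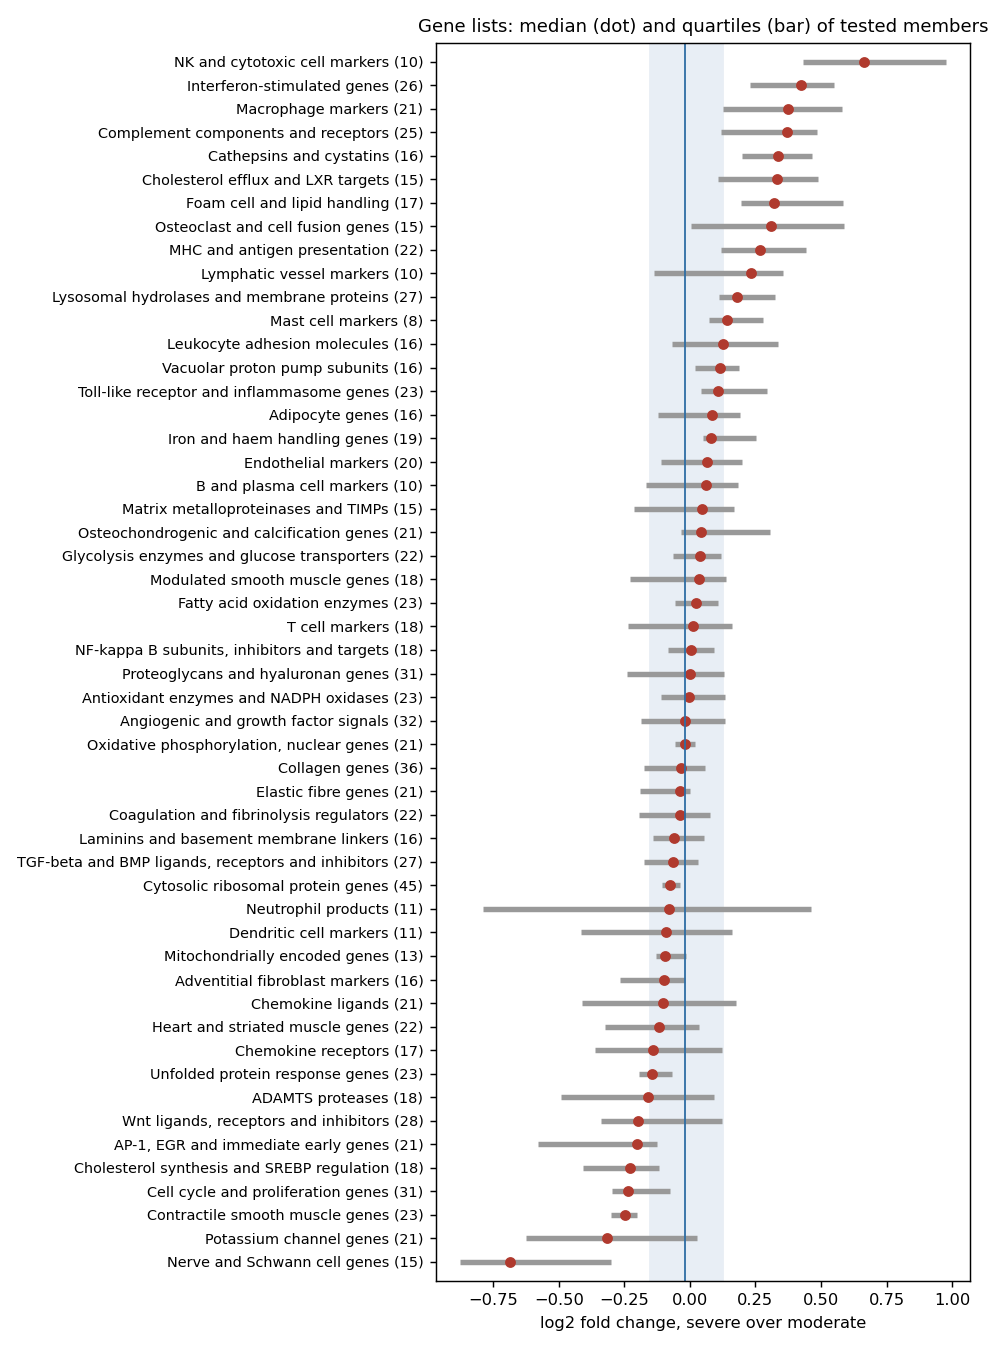
Median (dot) and quartiles (bar) of the log2 fold change, severe over moderate, for each of the 52 lists, with the number of tested members in brackets. The line and the shaded band are the median and quartiles of all 19716 genes tested. Macrophage, foam cell, complement and interferon lists are among those with medians above the band. The NK and cytotoxic list, at 0.66, is the highest, and the nerve list, at -0.69, is the lowest.

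Most lipid-handling genes had positive fold changes. Of 17 foam cell genes tested, 15 had a positive fold change, with a median of 0.32, and 0 passed the threshold. GPNMB, a glycoprotein abundant in lipid-laden macrophages, averaged 2635 in severe and 1465 in moderate segments (log2 0.85 ± 0.35, DESeq2 unadjusted p = 0.0161 in the authors' deposited table). PLTP, which transfers phospholipids between lipoproteins, averaged 1091 in severe and 620 in moderate segments (log2 0.82 ± 0.31, DESeq2 adjusted p = 0.869). LIPA, the lysosomal acid lipase that frees cholesterol from its esters, averaged 6497 in severe and 4250 in moderate segments (log2 0.61 ± 0.28). By contrast, the abundant secreted protein SPP1 had means of 10160 in severe and 8144 in moderate segments, with an interval that spans 0 (-0.49 to 1.12).

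Cholesterol export genes are driven in large part by the sterol-sensing receptor LXR. Of the 15 tested, 13 had a positive fold change (median 0.33), 5 of them with an unadjusted p under 0.05, against 2.22% of all genes tested; 0 passed the adjusted threshold. ABCA1, the pump that loads cholesterol onto apolipoprotein A-I, averaged 5673 in severe and 4136 in moderate segments (log2 0.46 ± 0.17, DESeq2 adjusted p = 0.742). ABCG1, which exports cholesterol to mature HDL, averaged 1043 in severe and 725 in moderate segments (log2 0.52 ± 0.20, DESeq2 adjusted p = 0.891). APOE, the apolipoprotein that macrophages secrete, averaged 13663 in severe and 8034 in moderate segments (log2 0.77 ± 0.33). The intervals of all 3 exclude 0 but not by enough to survive adjustment over 19716 genes.

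Genes of cholesterol synthesis, which cells switch on when sterol is scarce, had the opposite sign. Of 18 tested, 3 had a positive fold change and the median was -0.23, with 4 below an unadjusted p of 0.05, all lower in severe segments, against 1.56% of all genes; 0 passed the adjusted threshold. SQLE, squalene epoxidase, averaged 81.6 in severe and 145 in moderate segments (log2 -0.83 ± 0.27, DESeq2 adjusted p = 0.506). CYP51, the lanosterol demethylase, averaged 172 in severe and 235 in moderate segments (log2 -0.45 ± 0.19). INSIG1, a sterol-regulated brake on the pathway, stood at 941 in severe and 817 in moderate segments (log2 0.21 ± 0.30). These 3 were named after their values were seen.

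Of 21 macrophage markers tested as single genes, 16 had a positive fold change, with a median of 0.37 and 0 calls. F13A1, a coagulation factor subunit that resident macrophages express, averaged 1985 in severe and 1015 in moderate segments (log2 0.97 ± 0.30, DESeq2 adjusted p = 0.497). CD163, the scavenger receptor for haemoglobin, averaged 240 in severe and 132 in moderate segments (log2 0.87 ± 0.31, DESeq2 adjusted p = 0.700). CSF1R, the growth factor receptor that macrophages depend on, stood at 1485 in severe and 1599 in moderate segments (log2 -0.11 ± 0.25). MRC1 and LYVE1, markers of resident macrophages, also had negative values, with log2 fold changes of -0.19 ± 0.37 and -0.21 ± 0.48. Signs thus differed among the macrophage markers. Mild segments averaged 1197 for F13A1, above the moderate mean.

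Lysosomal genes showed small values with narrow errors. Of 27 tested, 24 were positive with a median of 0.18, and for 24 the 95% interval lay between -1 and 1. Among them, NAGLU, which degrades heparan sulfate, averaged 410 in severe and 308 in moderate segments (log2 0.42 ± 0.15, DESeq2 adjusted p = 0.739). Of 16 cathepsins and cystatins, the lysosomal proteases and their inhibitors, 13 were positive with a median of 0.34. CTSS, an elastin-degrading cathepsin of macrophages, averaged 12283 in severe and 7577 in moderate segments (log2 0.70 ± 0.32, DESeq2 unadjusted p = 0.0283). CTSZ averaged 2367 in severe and 1515 in moderate segments (log2 0.64 ± 0.26, DESeq2 adjusted p = 0.966). CTSL and LGMN had negative values, -0.25 ± 0.28 and -0.08 ± 0.28. Among the metalloproteinases, MMP9 averaged 3910 in severe and 2351 in moderate segments (interval -0.10 to 1.57), and MMP12 averaged 74.2 in severe and 76.0 in moderate segments (log2 -0.03 ± 0.71).

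Of 15 osteoclast and cell fusion genes, 11 were positive, with a median of 0.31 and 0 calls. CALCR, the calcitonin receptor of osteoclasts, averaged 612 in severe and 365 in moderate segments (log2 0.75 ± 0.25, DESeq2 adjusted p = 0.607). OSCAR, an osteoclast receptor for collagen, averaged 20.5 in severe and 12.8 in moderate segments (log2 0.67 ± 0.36, DESeq2 unadjusted p = 0.0627).

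**Figure D4:**
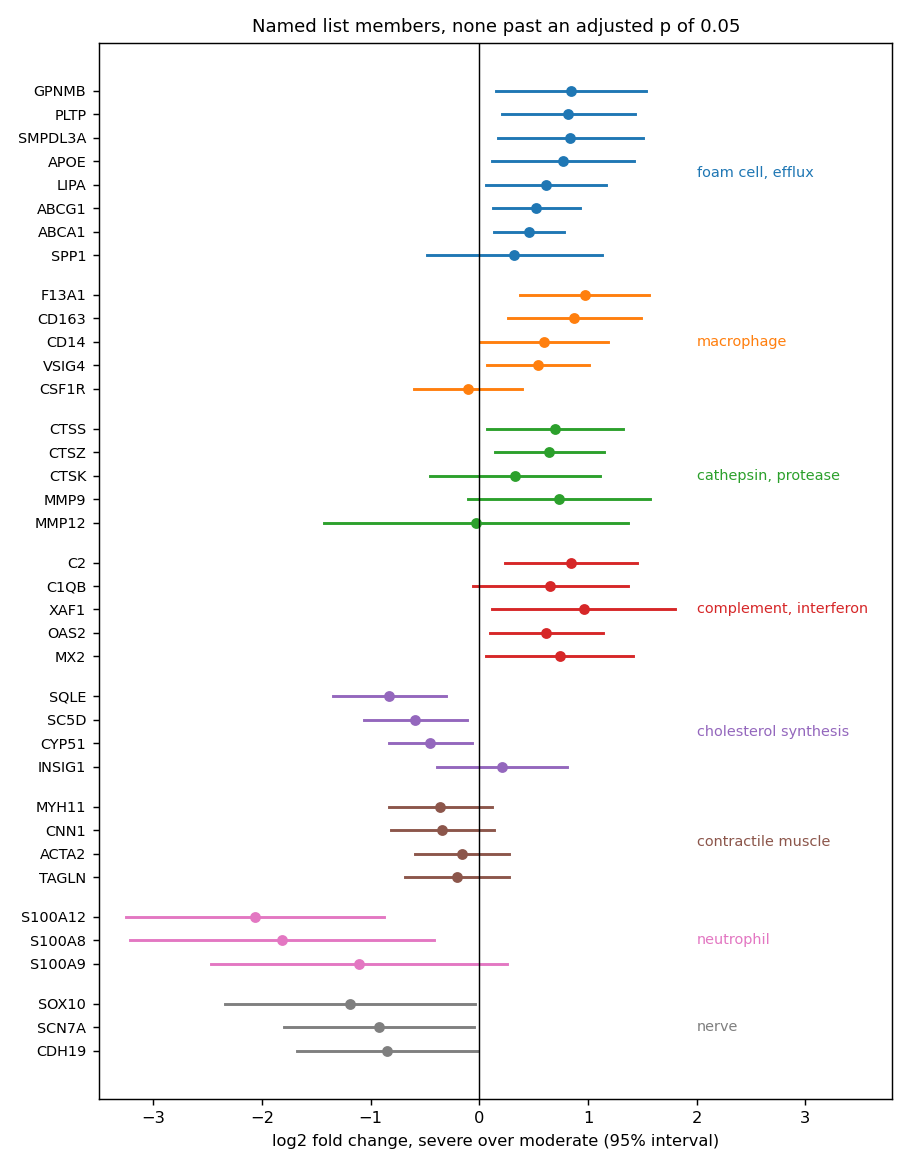
Log2 fold change, severe over moderate, with its 95% interval, for members of the lists described, grouped by list. Lipid, macrophage, complement and interferon genes lie mostly to the right of 0; the contractile genes, the 3 calgranulins, the 3 nerve genes and the cholesterol synthesis genes other than INSIG1 lie to the left; none of those drawn passed an adjusted p of 0.05.

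Complement and interferon genes had the same sign as the macrophage list. Of 25 complement genes tested, 21 were positive (median 0.37). C2, a protease of the classical pathway, averaged 1746 in severe and 973 in moderate segments (log2 0.84 ± 0.31, DESeq2 adjusted p = 0.748). C1QB, a chain of the C1q recognition molecule, averaged 3553 in severe and 2259 in moderate segments (log2 0.65 ± 0.36, DESeq2 unadjusted p = 0.0721). Of 26 interferon-stimulated genes, 25 were positive (median 0.43). XAF1 averaged 210 in severe and 108 in moderate segments (log2 0.96 ± 0.43), and OAS2, which senses double-stranded RNA, averaged 1031 in severe and 674 in moderate segments (log2 0.62 ± 0.26). Their DESeq2 unadjusted p-values were 0.0252 and 0.0195. ISG15, the ubiquitin-like protein that interferon induces, had an interval that spans 0 (-0.41 to 1.33). Beside these lists and those of lipid handling, export and lysosomes, the summed macrophage markers (3 of 4 matched, none at 0) were 4983 in severe and 3813 in moderate segments. Most of that difference lay in C1QA, at 3257 in severe and 2082 in moderate segments, while CSF1R was lower in severe segments. C1QA is also in the macrophage and complement lists, so the sum is not separate from them. The part of macrophage content in the values was not tested.

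Of 18 T cell genes tested, 9 were positive, with a median of 0.01. CD3E, a subunit of the T cell receptor complex, averaged 16.4 in severe and 13.6 in moderate segments, and CD8B, a coreceptor chain of cytotoxic T cells, averaged 295 in severe and 265 in moderate segments (log2 0.15 ± 0.51). Across the other groups CD8B did not follow CD3E. In mild segments CD8B averaged 870 and CD3E 12.3, and in severe segments with diabetes they averaged 64.7 and 30.4. CD8B is therefore an uncertain measure of T cells here. Of 10 NK and cytotoxic cell genes tested, 9 were positive, with a median of 0.66. KLRK1, an activating receptor, averaged 17.3 in severe and 7.83 in moderate segments (log2 1.16 ± 0.58, DESeq2 unadjusted p = 0.0466), and PRF1, perforin, averaged 32.5 in severe and 18.7 in moderate segments (log2 0.76 ± 0.40, DESeq2 unadjusted p = 0.0583). Only 1 of the 10 had a 95% interval within 1 of 0, so this list bounds little. Of 22 genes of MHC and antigen presentation, 19 were positive (median 0.27); PSMB9, an immunoproteasome subunit, averaged 55.0 in severe and 29.6 in moderate segments (log2 0.95 ± 0.42).

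Neutrophil products split by gene. Of 11 tested, 5 were positive, and 2 calgranulins, calcium-binding proteins of neutrophil cytoplasm, were lower at an unadjusted p under 0.05, against 1.56% of all genes tested. S100A12 averaged 27.2 in severe and 114 in moderate segments (log2 -2.06 ± 0.61, DESeq2 adjusted p = 0.377). S100A8 averaged 7.18 in severe and 25.3 in moderate segments (log2 -1.82 ± 0.71, DESeq2 adjusted p = 0.916). S100A9, the third, averaged 12.96 in severe and 27.89 in moderate segments, with an interval that spans 0 (log2 -1.11 ± 0.69). CSF3R, the neutrophil growth factor receptor, stood higher in severe segments, at 276 against 193 in moderate ones (log2 0.51 ± 0.30). The chemokine CCL2, which draws monocytes, averaged 340 in severe and 635 in moderate segments (log2 -0.90 ± 0.41, DESeq2 unadjusted p = 0.0277). These 5 were named after their values were seen.

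Contractile smooth muscle genes had small negative values. Of 23 tested, 2 were positive, the median was -0.25, and none had an unadjusted p under 0.05; for 17 of them the interval lay within 1 of 0. MYH11, smooth muscle myosin, averaged 9106 in severe and 11668 in moderate segments (log2 -0.36 ± 0.24). ACTA2, smooth muscle actin, averaged 33190 in severe and 36995 in moderate segments (log2 -0.16 ± 0.22). Of 36 collagen genes, 15 were positive, with a median of -0.03 and a range of -1.36 to 0.74; 26 had an interval within 1 of 0. At an unadjusted p under 0.05, 1 collagen gene was higher (COL8A2) and 2 were lower (COL4A4 and COL28A1). Over all genes tested, 2.22% were higher and 1.56% lower at that level. COL8A2 averaged 65.9 in severe and 40.4 in moderate segments (log2 0.74 ± 0.36), and COL4A4, a basement membrane chain, averaged 58.9 in severe and 116 in moderate segments (log2 -0.98 ± 0.43). COL3A1 averaged 173569 in severe and 178804 in moderate segments (log2 -0.04 ± 0.29), and FN1, fibronectin, averaged 85963 in severe and 87845 in moderate segments (log2 -0.03 ± 0.24). Of 31 cell cycle and proliferation genes tested, 5 were positive, with a median of -0.24, and 0 had an unadjusted p under 0.05. MKI67, a proliferation marker and 1 of these 5, averaged 454 in severe and 447 in moderate segments (log2 0.03 ± 0.21).

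Nerve and Schwann cell genes had the lowest median of the 52 lists, -0.69, with 2 of 15 positive and 0 calls. SCN7A, a sodium channel of Schwann cells and neurons, averaged 343 in severe and 650 in moderate segments (log2 -0.92 ± 0.45, DESeq2 unadjusted p = 0.0393). SOX10, the regulator of Schwann cell identity, averaged 8.23 in severe and 18.9 in moderate segments (log2 -1.19 ± 0.59, DESeq2 unadjusted p = 0.043). L1CAM went the other way, at 505 in severe and 372 in moderate segments (log2 0.45 ± 0.24). Of the 4 nerve markers, none was at 0 in either group, and the amount of nerve in each segment was not measured.

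Heart muscle genes had wide errors. Of 22 tested heart and striated muscle genes, 9 were positive and 1 had an interval within 1 of 0. MYH7, a ventricular myosin, averaged 16226 in severe and 12849 in moderate segments (interval -2.42 to 3.10). Atrial genes had high means in the moderate group. NPPA, atrial natriuretic peptide, averaged 63.6 in severe and 1757 in moderate segments. MYL7, atrial myosin light chain, averaged 49.7 in severe and 830 in moderate segments. The deposited table gives both a fold change and no p. In all 35 genes had a fold change without a p, and 18 of them had their highest group mean in moderate non-diabetic segments. No call can be made for these. By default, DESeq2 gives a fold change without a p where a single library has an extreme count for that gene. Which library or group that was is not given for any of these genes. With no value per library, how much of a group mean came from 1 segment cannot be stated.

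The grade was set beside diabetes by testing, for 17418 genes, whether the severe over moderate change differed between animals with and without it. This Wald test, computed here from the deposited fold changes and standard errors, called 4 genes at an adjusted p under 0.05 (0.023%). The 2 comparisons share no library, but the same animals may have given segments to both grades. FMN1 had a log2 fold change of -0.31 ± 0.17 with diabetes and 0.87 ± 0.19 without, a difference of -1.19 ± 0.25 (adjusted p = 0.0187 by the Wald test with Benjamini-Hochberg adjustment). KIAA1211L had -0.71 ± 0.37 with diabetes and 1.69 ± 0.40 without, a difference of -2.40 ± 0.54 (Wald adjusted p = 0.0427, and 0.0569 when NPPA and the other genes lacking a deposited p were left out). For LOC100512344 the values were 0.60 ± 0.78 with diabetes and -5.46 ± 0.98 without (Wald adjusted p = 0.0119). The fourth, NPPA, is listed at 0 in moderate diabetic segments and has no deposited p. Its fitted difference of 27.30 is therefore no measure of size, and NPPA is not read as a gene that differed.

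With diabetes, FMN1 and KIAA1211L were already high in moderate segments, at 122 and 282. The severe segments of both conditions were close: FMN1 averaged 98.6 with diabetes and 85.5 without, and KIAA1211L 172 with diabetes and 177 without. Of the other calls, LOC100517243 had a log2 fold change of -0.11 ± 1.53 with diabetes and LOC100739719 one of 0.59 ± 0.99, and their differences missed the threshold (Wald adjusted p = 0.0746 and 0.0783). CSF2RB, a shared receptor chain for growth factors of myeloid cells, stood at -0.46 ± 0.15 with diabetes and 0.47 ± 0.16 without, and PIK3R5, a PI3-kinase regulator of leukocytes, at -0.32 ± 0.13 with diabetes and 0.48 ± 0.14 without. Both had a Wald adjusted p of 0.0783.

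The list medians can be read side by side in the same way, with no test. Of all genes tested without diabetes, 52.8% had a positive fold change with diabetes and 46.5% without. The interferon list had a median of -0.04 with diabetes and 0.43 without, with 11 and 25 of its 26 genes positive. The foam cell list had 0.19 with diabetes and 0.32 without, with 15 of 17 positive in both. Cholesterol export genes had -0.02 with diabetes and 0.33 without, and cholesterol synthesis genes 0.06 with diabetes and -0.23 without. Nerve genes had -0.21 with diabetes and -0.69 without. Over the 13245 genes whose mean reached 50, the correlation of both sets of fold changes was -0.11, a description across genes of 2 comparisons with separate libraries.

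**Figure D5:**
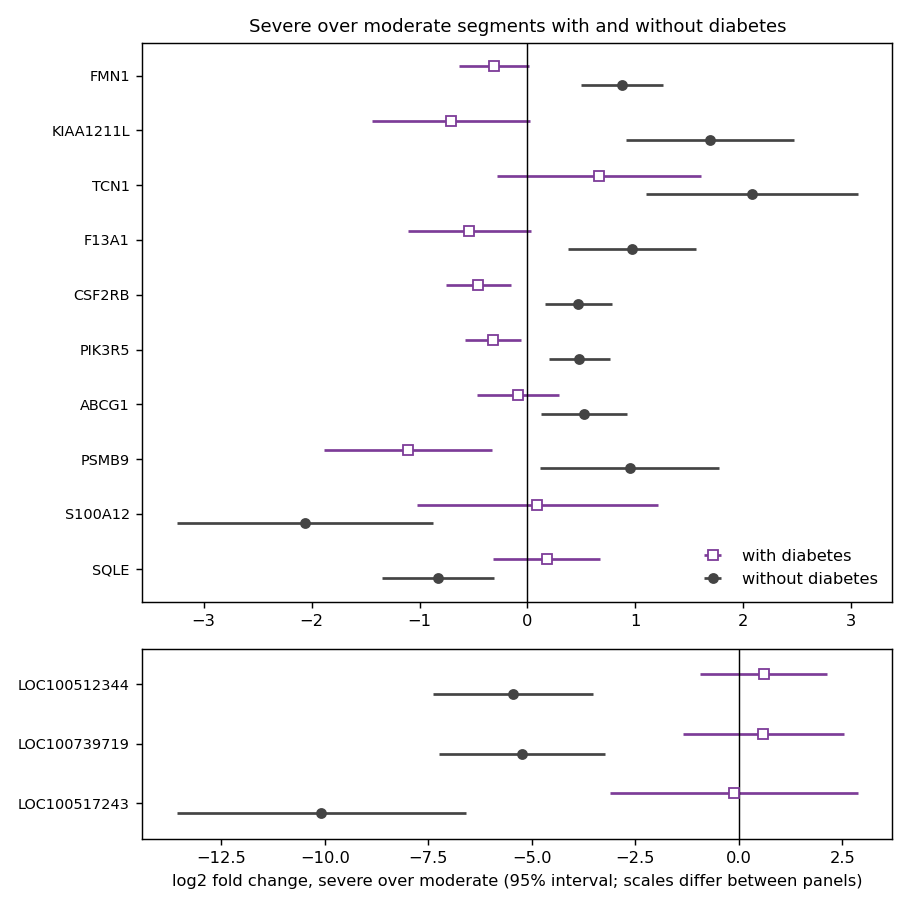
Log2 fold change, severe over moderate, with its 95% interval, with diabetes (open squares) and without (filled circles); the lower panel has a wider scale. FMN1, KIAA1211L and LOC100512344 differ between the conditions past an adjusted p of 0.05 in the Wald test, and the other genes drawn do not.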

How the data were processed

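Trizol-extracted RNA of 3-mm coronary segments was selected for poly-A and primed at random, per the labels' protocols. The authors used DESeq2 and the build Sscrofa11.1, per the submitters' processing notes, with no version; the sources used here give no aligner, counter or annotation. The authors deposited 6 tables with the normalized mean of each group (a signal, not a count), log2 fold changes with standard errors, a test score, p-values and adjusted p-values. Cells of fold changes holding an error text were read as missing. The 24 lines of a table with a date for a gene name were left out, which leaves 35228 names, of which 30186 have a fold change and 30151 a p-value. The score has its sign opposite to the fold change in 100% of genes, so directions follow the fold change. Calls are the deposited adjusted p under 0.05. Names that the authors' DESeq2 filter left with no adjusted p stay out. A Wald p computed here matched the deposited p within 4.33e-15. Standard errors predicted from 5 comparisons matched those of the sixth, as a single fit of all groups gives.

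The difference with and without diabetes was tested where the mean reached 10 (two-sided Wald, Benjamini-Hochberg), in Python 3.11.15 with scipy 1.17.1, and the script was tested on simulated data. Intervals are 95%. Depth was read from single-read steps shared by at least 150 genes, and counting intervals cover reads only. Lists were matched by same name (953 genes), synonym or identifier (63) or the numbered copy of highest mean (25). Named genes are those past the threshold, the 2 members of smallest p of each list whose median lay at least 0.3 from that of all genes, and those of the difference test; other names and lists were chosen after their values were seen. Members and lists were chosen with earlier results of these data known.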

Additional observations from a re-analysis of the deposited data

Results flagged for a closer look

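The Wald test of the difference in severe over moderate change (with minus without diabetes, log2 scale) called 4 genes, NPPA among them. The differences were -1.19 for FMN1, -2.40 for KIAA1211L, 6.06 for LOC100512344 and 27.30 for NPPA. NPPA is listed at 0 in moderate diabetic segments, and neither of its comparisons has a deposited p, so it is not read as a gene that differed. With genes lacking a deposited p left out, KIAA1211L had a Wald adjusted p of 0.0569. LOC100512344 rests on 6 or 7 reads in the severe non-diabetic group.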

How the results depend on the processing

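The count of genes higher in severe segments, 1, was 0 at an adjusted p under 0.01, 5 at under 0.1, 0 with no filter on low means, 2 among genes with a mean of at least 10, 0 when a change of at least 1 on the log2 scale was required, and 3 with fold changes centred on their median, a shift of -0.01. FMN1 was the call lost with no filter; LOC102166402 was added under both of the settings that added calls at the 0.05 threshold, and KIAA1211L under centring. The 3 lower genes passed under each of these filters and under centring, which added LOC100525180; at 0.1 the count was 6. Calls among list members numbered 0 under the alternatives run (no filter, centring). The difference test's 4 genes became 2 among 17401 genes with a deposited p in both comparisons, an alternative chosen after seeing the data, 3 with no filter on the mean, 4 at a mean of 50 or more, and 11 at an adjusted p under 0.1. Of 22 named genes with a p, all 22 kept direction with a ratio of means and a pseudocount of 1. That ratio uses the same group means, whose sign the fold change shared in 98.2% of genes tested, so it could hardly have turned a direction.

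Leaving out each library and a limma fit were not run, since no value per library was used. No paired analysis was possible because the columns hold group means. A severe mean of 3 reads over the group would be 0.59, and a moderate one 0.76, so ratios to lower means are bounded by reads alone.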

Other observations

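IBSP, bone sialoprotein of mineralizing tissue, was, among genes with a severe non-diabetic mean of at least 10, the single one for which that mean lay over 10 times every other group's mean. It averaged 16.0 in severe and 0.80 in moderate segments (log2 4.21 ± 1.69, unadjusted p = 0.0126 from DESeq2 in the authors' deposited table, with no adjusted p). The other groups averaged 0.46 in severe and 1.07 in moderate segments with diabetes, and 0.35 in mild segments.

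The following genes were picked from those with an unadjusted p under 0.05 after their values were seen, and stand for no group. CLEC7A, a receptor for fungal glucan, averaged 169 in severe and 83.6 in moderate segments (log2 1.01 ± 0.31, DESeq2 adjusted p = 0.423). HPSE, heparanase, averaged 276 in severe and 126 in moderate segments (log2 1.13 ± 0.35, DESeq2 adjusted p = 0.497). WDFY4, needed for cross-presentation by dendritic cells, averaged 2312 in severe and 1540 in moderate segments (log2 0.59 ± 0.17, DESeq2 adjusted p = 0.333). UNC93B1, the chaperone of endosomal Toll-like receptors, averaged 523 in severe and 320 in moderate segments (log2 0.71 ± 0.21, DESeq2 adjusted p = 0.377). The endothelial lipase LIPG had a negative value, at 144 in severe and 343 in moderate segments (log2 -1.24 ± 0.39, DESeq2 adjusted p = 0.501). SLA-5, a class I MHC gene with near-identical relatives, averaged 498 in severe and 175 in moderate segments (log2 1.51 ± 0.43, DESeq2 adjusted p = 0.336).

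The most abundant name in both groups was TEX14, known as a germ cell gene, with 3.37% of all normalized counts in severe and 5.33% in moderate segments. Its log2 fold change was -0.72 ± 0.51 in the authors' deposited table.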
